A study of Rattus norvegicus with 8 samples.

Results

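Gpcpd1, Agpat3, Lpin1, Chka, Chkb, Pcyt1a, Cept1 and Cdipt are 8 genes of glycerophospholipid synthesis and breakdown. They were followed in the tibialis anterior, a fast-twitch leg muscle, of hyperthyroid and control rats. The genes were chosen from the contrast between these groups, in which Gpcpd1 and Agpat3 were among 7 genes past a limma adjusted p of 0.05 (0 genes without hyperthyroid replicate 3, 1 without control replicate 7 and 3 without control replicate 9), and the others were added for their place in the same pathway. Every value of that contrast given for the 8 genes is therefore a description and carries no test. All array features (probe sets, each read by short probes near the 3' end of a transcript) whose only gene symbol is 1 of these 8 were taken, which gave 16 of the 31042 probe sets on the array and 8 of the 14217 named genes. Gpcpd1, Lpin1 and Pcyt1a had 2 probe sets each, Agpat3 had 6, and the remaining 4 genes had 1 each.

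The animals were adult Sprague-Dawley rats that weighed 200 ± 40 g at the outset, with 3 males and 1 female per group. The 4 hyperthyroid rats, replicates 1, 2, 3 and 5, had been injected intraperitoneally with triiodothyronine (T3), the active thyroid hormone, at 25 µg per 100 g of body weight at intervals of 2 days over 6 weeks. Their muscles were taken 24 hours after the final dose. The 4 control rats, replicates 7, 8, 9 and 11, were untreated, and no vehicle injection is described. Each rat gave 1 array, and the labels do not tell which array came from a female. The eye muscles of the same animals were not analysed here.

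Glycerophospholipids are the main lipids of cell membranes, and in muscle they form the sarcolemma, the sarcoplasmic reticulum and the mitochondrial membranes. Acyltransferases build phosphatidic acid from glycerol phosphate. This is either dephosphorylated to diacylglycerol, which accepts choline or ethanolamine, or activated with CTP on the way to phosphatidylinositol and cardiolipin. Phospholipases and glycerophosphodiesterases take the products apart and return choline and glycerol phosphate. Thyroid hormone is known to alter lipid synthesis and turnover in liver and muscle.

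The promoters of Gpcpd1, Agpat3 and Lpin1 are shown because these were the genes with a probe set whose hyperthyroid and control arrays did not overlap. Each window holds 300 bases, from 250 before to 50 after a transcript start in RefSeq (build GRCr8), 5′ to 3′ on the strand of the gene. Capitals mark the motif matches named after the sequences. The Gpcpd1 window is chr3:140285296-140285595 on the minus strand, that of Agpat3 is chr20:10383931-10384230 on the plus strand, and that of Lpin1 is chr6:45108893-45109192 on the minus strand.
Gpcpd1: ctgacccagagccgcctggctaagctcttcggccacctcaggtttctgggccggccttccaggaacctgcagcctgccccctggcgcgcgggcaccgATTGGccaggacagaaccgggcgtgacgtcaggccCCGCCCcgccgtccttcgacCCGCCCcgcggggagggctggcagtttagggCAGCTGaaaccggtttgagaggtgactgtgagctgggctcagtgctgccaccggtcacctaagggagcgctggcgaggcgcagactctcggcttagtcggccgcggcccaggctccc
Agpat3: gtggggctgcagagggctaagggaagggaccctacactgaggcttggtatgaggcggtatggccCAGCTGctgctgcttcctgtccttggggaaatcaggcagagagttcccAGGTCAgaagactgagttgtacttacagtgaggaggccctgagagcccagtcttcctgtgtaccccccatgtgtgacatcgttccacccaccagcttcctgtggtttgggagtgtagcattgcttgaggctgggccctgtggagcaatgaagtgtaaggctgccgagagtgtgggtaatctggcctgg
Lpin1: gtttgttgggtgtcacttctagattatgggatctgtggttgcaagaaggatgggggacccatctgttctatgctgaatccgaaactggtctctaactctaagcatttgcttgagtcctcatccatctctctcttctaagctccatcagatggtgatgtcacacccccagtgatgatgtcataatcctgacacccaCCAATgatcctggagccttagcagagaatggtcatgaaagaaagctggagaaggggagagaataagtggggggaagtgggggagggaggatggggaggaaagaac

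All 8 genes had a window. The start used for Agpat3 lay 53.5 kb inside the annotated gene and that for Lpin1 36.9 kb inside it. These windows therefore stand for 1 internal start each, whereas the start of Gpcpd1 lay 0.124 kb from the 5′ edge of its gene. The Gpcpd1 window had 70% GC and 26 CpG dinucleotides, Agpat3 had 57.7% and 3, and Lpin1 had 49.0% and 1, against a median of 61.0% and 21 over the windows of the 8542 tested genes that had one. The hexamer AGGTCA, which thyroid hormone receptors and other nuclear receptors bind, was found, on either strand, in the window of Agpat3, at bases -138 to -133 from the start, and in none of the other 7. It occurs in 15.7% of all 27457 windows and 11.8% of those of tested genes. The same hexamer repeated in 1 direction with 4 bases between was in none of the 8 and in 0.00364% of all windows.

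The E-box CAGCTG, which myogenic factors bind, was in the windows of Gpcpd1 (bases -67 to -62) and Agpat3 (bases -186 to -181), and in 15.1% of all windows. The GC box GGGCGG was in 5 of the 8 windows (Gpcpd1, Chka, Chkb, Pcyt1a and Cept1) and in 34.9% of all, or 62.7% of those of tested genes. CCAAT was in 5 of the 8 (Gpcpd1, Lpin1, Chka, Chkb and Cdipt) and in 37.7% of all. TATAAA was in that of Chkb alone among the 8, and in 14.3% of all. CACGTG was in none of the 8 and 6.65% of all, and the sterol element TCACCCCAC in none and 0.495%. The 2 E-boxes are palindromes and were counted once, and both strands were searched for the rest. A match is a description of letters and shows no binding.

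Of the 16 probe sets, 12 passed the filter on low values, a mean log2 level equal to an intensity of about 22.4. Of those 12, 4 had all hyperthyroid arrays above all control arrays, 8 overlapped and none lay apart in the other direction. Over all 31042 probe sets, including those under the filter, 2.14% lay apart with the hyperthyroid arrays higher and 2.86% with them lower. Over the 10200 genes tested, each read by 1 set that passed the filter, these shares were 3.34% and 3.21%. The 4 were 1 of Gpcpd1, 1 of Agpat3 and both of Lpin1. As the genes were chosen from this contrast, nothing is read from their share. In bulk muscle, a change in the number of cells that hold a transcript cannot be told apart from a change in its amount per cell, and signals of different probe sets are not compared in level. Intensities are given throughout in the order of hyperthyroid replicates 1, 2, 3 and 5, then of control replicates 7, 8, 9 and 11.

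**Figure D1:**
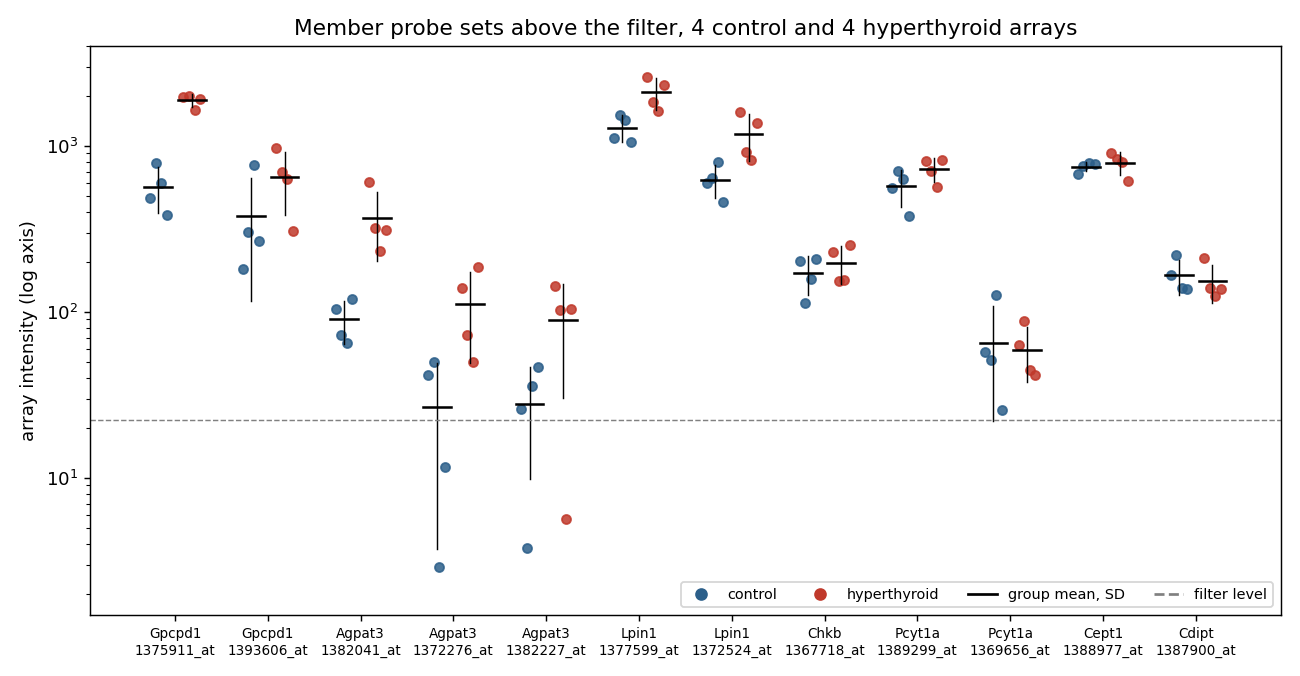
Intensity on each array (log axis) of the 12 probe sets of the 8 genes that passed the filter, with control arrays in blue, hyperthyroid arrays in red, bars at the group mean with SD (n = 4 each), and the filter level of 22.4 dashed. The groups are apart for Gpcpd1 1375911_at, Agpat3 1382041_at and both probe sets of Lpin1, and they overlap for the others.

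Gpcpd1 encodes the phosphodiesterase that splits glycerophosphocholine into choline and glycerol phosphate, the last step of phosphatidylcholine breakdown. Its representative probe set (the kept set with the highest mean), 1375911_at, had intensities of 1959, 1915, 2009 and 1654 on the hyperthyroid arrays. In the controls it had 487, 793, 599 and 386. The lowest hyperthyroid array lay 861 units above the highest control, and the hyperthyroid arrays were the more even group, with an SD on the log2 scale of 0.13 against 0.44. The log2 difference was 1.77 ± 0.23 (SE, n = 4 each), a fold of 3.42. Leaving out 1 array at a time gave 1.61 to 1.95.

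The second probe set of Gpcpd1, 1393606_at, had 966, 309, 700.2 and 635 in the hyperthyroid rats and 180.3, 303, 765 and 269 in the controls. Its groups overlapped: control replicate 9 exceeded 3 of the 4 hyperthyroid arrays, and hyperthyroid replicate 2 stood just above control replicate 8. The log2 difference of 0.88 ± 0.56 (SE, n = 4 each) had the same sign as that of the first set but was smaller, ran from 0.60 without control replicate 7 to 1.29 without control replicate 9, and was 0.32 without control replicates 7 and 11 together. Where the probes of either set lie on the transcript was not examined.

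Agpat3 encodes an acyltransferase of the endoplasmic reticulum that adds the second acyl chain to lysophosphatidic acid, with a known preference for polyunsaturated chains. Its representative probe set, 1382041_at, had 603, 312, 318 and 233 in the hyperthyroid rats and 104, 72.6, 64.6 and 119 in the controls. All 4 hyperthyroid arrays lay above the controls, with 113 units between the nearest arrays, and replicate 1 was the highest. The log2 difference was 1.93 ± 0.35 (SE, n = 4 each), a fold of 3.82. Without hyperthyroid replicate 1 the log2 difference was 1.66.

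Set 1372276_at of Agpat3 had 139, 186, 72.3 and 49.6 in the hyperthyroid rats, and 41.7, 50.2, 2.89 and 11.7 in the controls. The groups met at hyperthyroid replicate 5 and control replicate 8, and the log2 difference was 2.22 ± 0.84 (SE, n = 4 each). Set 1382227_at had 143, 104, 103 and 5.63 against 25.9, 3.76, 36.0 and 46.5. Of its hyperthyroid arrays 3 were above every control and replicate 5 was below all but 1, so that the log2 difference of 1.30 ± 1.13 (SE, n = 4 each) became 2.23 without replicate 5 and 0.69 without control replicate 8. The filter was on the mean over all 8 arrays, so the difference itself bears on which sets passed. The control mean log2 levels of both sets, 4.45 and 4.66, were under the filter level of 4.69, and they passed through the hyperthyroid arrays.

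The other 3 probe sets of Agpat3 were under the filter and had log2 differences below 0. Of these, 1396569_at and 1397491_at had control mean log2 levels of 5.30 and 4.95, above the filter level, and were left out through their low hyperthyroid arrays, so the sign on either side of the filter was in part fixed by it. Set 1396569_at had 1.68, 4.98, 23.9 and 36.6 in the hyperthyroid rats against 33.3, 33.8, 38.9 and 38.5 in the controls, a log2 difference of -1.42 ± 0.70 (SE, n = 4 each). The controls were close together and the hyperthyroid arrays spread, with replicate 5 inside the control range, and the difference was -0.91 without hyperthyroid replicate 1. Set 1397491_at had 8.15, 8.10, 43.8 and 4.36 against 9.71, 95.5, 52.3 and 9.09, and set 1380480_at had 1.06, 15.1, 3.99 and 3.05 against 9.04, 36.4, 1.96 and 34.4. Both overlapped, at log2 differences of -1.05 ± 0.94 and -1.17 ± 0.82 (SE, n = 4 each). Leaving out 1 array moved 1397491_at between -1.61 (without hyperthyroid replicate 3) and -0.49 (without control replicate 8), and 1380480_at between -1.74 (without control replicate 9) and -0.78 (without control replicate 8). At low intensities log2 differences depend on the pseudocount of 3.41. With a pseudocount of 12.6, sets 1396569_at, 1397491_at and 1380480_at gave -0.91, -0.76 and -0.72, and with a floor in its place they gave -1.96, -1.28 and -1.61. The kept sets 1372276_at and 1382227_at gave 1.74 and 1.10 with the higher pseudocount and 2.59 and 1.43 with the floor.

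**Figure D2:**
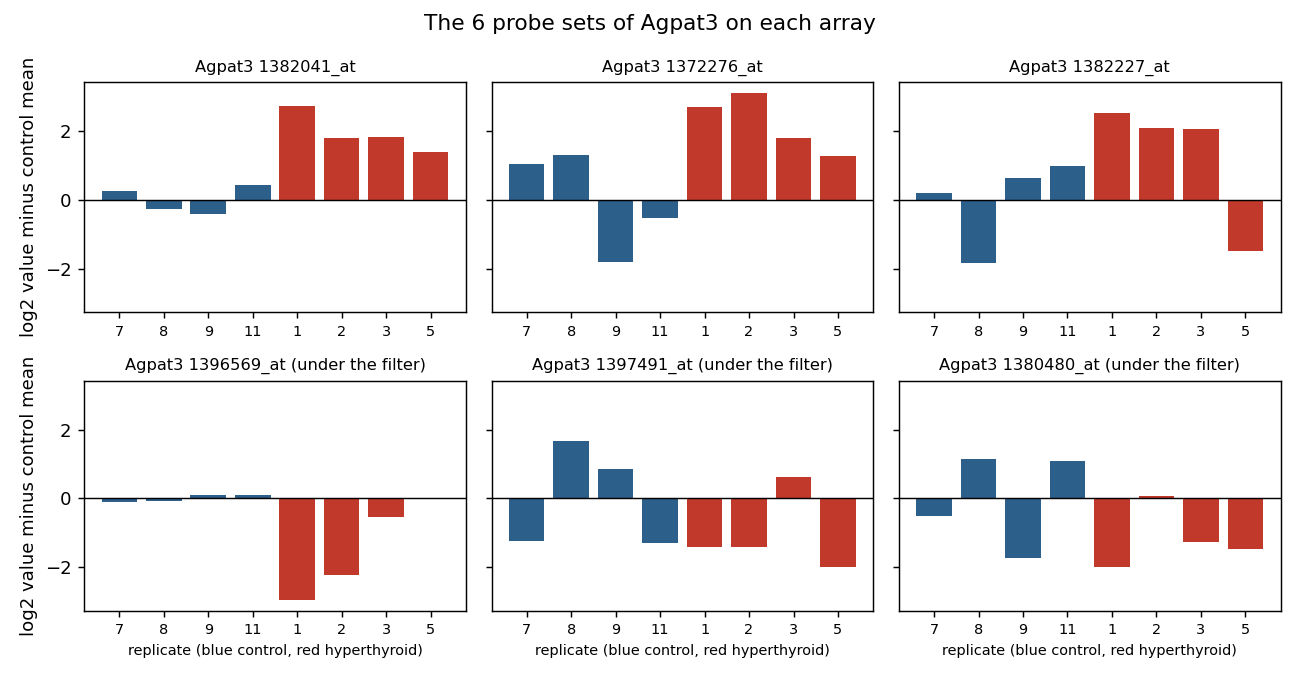
Log2 value of each Agpat3 probe set minus its mean over the control arrays, by replicate, with control arrays in blue and hyperthyroid arrays in red. In the upper row, the sets that passed the filter, every hyperthyroid bar but replicate 5 of 1382227_at is above 0; in the lower row, the sets under the filter, only 1 hyperthyroid bar of each set is above 0.

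Lpin1 encodes lipin, the phosphatidate phosphatase that makes diacylglycerol and whose loss causes muscle breakdown in people. Its probe set 1377599_at had 2604, 2337, 1848 and 1618 in the hyperthyroid rats and 1109, 1539, 1439 and 1060.3 in the controls. The groups did not overlap, but the margin of 79.3 units was narrow beside the spread of the hyperthyroid arrays (SD 449). The log2 difference was 0.70 ± 0.21 (SE, n = 4 each), a fold of 1.62.

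The second set, 1372524_at, had 1599, 1379, 923 and 824 against 596, 640.3, 804.5 and 461, with 19.6 units between the groups and a log2 difference of 0.89 ± 0.28 (SE, n = 4 each). Both sets ranked the hyperthyroid arrays alike, with replicate 1 highest, then 2, 3 and 5. Lpin1 was thus the only gene with more than 1 probe set in which every set had non-overlapping groups.

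No probe set of Chka, Chkb, Pcyt1a or Cept1, the genes of the choline branch among the 8, had groups apart. Over all probe sets only 2.14% lay apart with the hyperthyroid arrays higher and 2.86% with them lower, so nothing is read from this count. Chkb encodes choline kinase beta, which phosphorylates choline and whose loss causes a muscular dystrophy in mice and people. Its only probe set had 229, 253, 153 and 157 in the hyperthyroid rats and 204, 112, 158 and 209 in the controls. Of the hyperthyroid arrays, 2 were above all controls and 2 inside their range. The log2 difference was 0.22 ± 0.27 (SE, n = 4 each), and 0.033 without control replicate 8. Chka, the other choline kinase, lay under the filter, with 37.7, 44.8, 4.87 and 19.9 against 59.3, 3.34, 7.35 and 5.73. Only 3 of the 8 arrays reached the filter level, and the difference of 0.80 ± 0.92 was smaller than its own SE, running from 0.44 without control replicate 8 to 1.51 without control replicate 7.

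Pcyt1a encodes the enzyme that makes CDP-choline, the rate-limiting step of the branch. Set 1389299_at had 809.6, 826, 709 and 567 in the hyperthyroid rats and 560.4, 709, 634 and 376 in the controls. Its groups overlapped at a log2 difference of 0.37 ± 0.23 (SE, n = 4 each), which ran from 0.19 without control replicate 11 to 0.49 without control replicate 8. Set 1369656_at had 62.7, 41.8, 88.2 and 44.6 against 57.0, 51.0, 126 and 25.8, a difference of 0.019 ± 0.50 with no constant sign when single arrays were left out (-0.32 to 0.39).

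Cept1, which joins CDP-choline or CDP-ethanolamine to diacylglycerol, had 904, 611, 837 and 803 in the hyperthyroid rats and 680.1, 757, 784 and 778 in the controls. The log2 difference was 0.061 ± 0.13 (SE, n = 4 each), with 3 hyperthyroid arrays above the controls and replicate 2 below them all. Cdipt, the phosphatidylinositol synthase, had 211, 137, 139 and 124 against 166, 222, 139.7 and 137, a difference of -0.12 ± 0.23 (SE, n = 4 each). Both differences were smaller than their SE, and each turned sign when 1 array was left out: Cept1 to -0.0098 without hyperthyroid replicate 1, and Cdipt to 0.023 without control replicate 8. Cdipt was also at 0.098 after the arrays were centred on their medians.

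**Figure D3:**
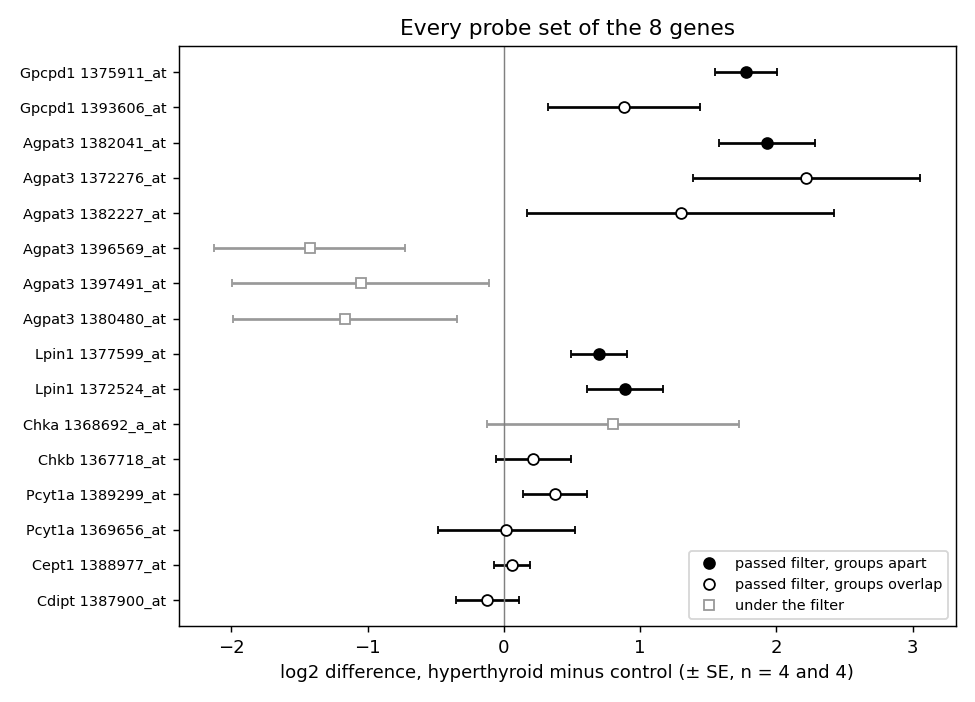
Log2 difference, hyperthyroid minus control, of all 16 probe sets with its SE (n = 4 and 4); filled circles passed the filter with non-overlapping groups, open circles passed it with overlapping groups, grey squares were under it. The sets run from -1.42 to 2.22, both ends being Agpat3.

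The spread over the 4 control arrays, which also entered the fit that chose the genes and is given as a description, differed between them. For each kept set the SD of its log2 values in controls was set beside those of 500 other kept probe sets. These were the nearest in mean log2 level over all 8 arrays. Sets higher in hyperthyroid rats were thus matched above the level of their controls (Agpat3 1372276_at at 5.56 against 4.45, 1382041_at at 7.47 against 6.51). The median SD of the near sets was larger at low levels (0.83 for Agpat3 1382227_at, 0.22 for Gpcpd1 1375911_at). The shares for such sets therefore depend on the matching. Gpcpd1 varied more than most: set 1375911_at had an SD of 0.44 against a median of 0.22 (90.2% of the 500 were lower) and set 1393606_at 0.87 against 0.25 (98.0% lower). Agpat3 1372276_at had 1.45 against 0.66 (92.0% lower). Pcyt1a 1389299_at had 0.40 against 0.23 (84.2% lower). Cept1 was the steadiest, at 0.094 against 0.23 (6.6% lower). For Agpat3 1382227_at, Pcyt1a 1369656_at and Lpin1 1372524_at, 76.8%, 76.0% and 74.2% were lower. For Lpin1 1377599_at, Agpat3 1382041_at, Chkb and Cdipt these shares were 67.4%, 67.2%, 66.6% and 45.2%.

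The control arrays were ordered alike in some of the kept probe sets and not in others. Control replicates 7 and 11 were the lowest of the 4 in both probe sets of Gpcpd1, both of Lpin1 and in Pcyt1a 1389299_at. They were the highest of the 4 in Agpat3 1382041_at and Chkb. In the other kept sets (Agpat3 1372276_at and 1382227_at, Pcyt1a 1369656_at, Cept1 and Cdipt) they were not together at either end. The share of all probe sets with these arrays at 1 end was not counted, so nothing is read from the list. Control replicates 7 and 11 had the highest level of the slow-fibre markers, with means over 6 genes of 4.12 and 3.40. These are log2 values, each gene centred on its mean over the 8 arrays. Control replicates 8 and 9 had -0.57 and -0.10. The hyperthyroid replicates 1, 2, 3 and 5 had 0.048, -0.54, -2.30 and -4.06. Both Lpin1 sets fell in that order on the hyperthyroid arrays and were lowest among controls on replicates 7 and 11. All 6 slow-fibre markers had a log2 difference below 0. Some of their single intensities were under the filter level of 22.4 (lowest 1.33, Myl2), where presence of the transcript cannot be read. The part of these markers in the values of the 8 genes was not tested. Without control replicates 7 and 11, a choice made after seeing the data, the log2 differences were 1.44 for Gpcpd1 1375911_at, 2.27 for Agpat3 1382041_at, 0.47 for Lpin1 1377599_at, 0.66 for Lpin1 1372524_at, 0.52 for Chkb and 0.10 for Pcyt1a 1389299_at.

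The genes whose profile over the 8 arrays was nearest were found by the root mean square distance between log2 values, each gene centred on its own mean. To Gpcpd1 the nearest 5 of the genes tested were Pcyox1 (0.31), Thrsp (0.31), Syncrip-ps2 (0.36), Bbln (0.38) and Pex16 (0.40), against a median distance of 1.01. To Agpat3 they were Serpinb1a (0.25), Luzp1 (0.35), Large2 (0.40), Tstd3 (0.41) and Dusp14 (0.49), against 1.13. To Lpin1 they were Mettl3 (0.12), Nrdc (0.13), Mapkapk2 (0.14), Flywch1 (0.14) and Akt2 (0.14), against 0.58. All 15 had higher means on hyperthyroid arrays, by 0.52 to 2.16 on the log2 scale, as a near profile to these genes must. Among the 7 genes with a kept probe set (all but Chka) the nearest pair was Lpin1 and Pcyt1a (0.22), followed by Cept1 and Cdipt (0.30), while Gpcpd1 and Agpat3 were 0.59 apart.

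None of the further genes of glycerophospholipid metabolism that were listed and tested passed the adjusted threshold. Of 78 further genes of 7 role lists on the array, 64 passed the filter and were tested with limma over all 10200 genes. None was called higher and none lower at an adjusted p of 0.05, against 0.0686% and 0% of all genes. With so few of all genes called, nothing is read from this count. At an unadjusted limma p under 0.05, 2 were higher and 2 lower (3.12% each), against 5.38% and 5.21% of all genes. The groups lay apart for 1 with the hyperthyroid arrays higher and 2 with them lower, against 3.34% and 3.21%. The median log2 difference was -0.040 over the 64 and -0.00029 over all genes. Centring the arrays on their medians, which raises the median of all genes by 0.22, gave 10 higher and 1 lower at the unadjusted threshold. The share of all genes past that threshold after centring was not counted, so nothing is read from the change.

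Among the 7 acyltransferases of glycerol phosphate, median 0.16, both genes past the unadjusted threshold were higher. Agpat1, which makes the same product as Agpat3, had 120, 187, 159 and 129 in the hyperthyroid rats and 107, 107, 67.7 and 80.2 in the controls, with groups apart, a log2 difference of 0.70 ± 0.25 (SE, n = 4 each) and a limma adjusted p of 0.351. Its second kept set gave -0.29 ± 0.39. Agpat5, another acyltransferase of the family, gave 0.58 ± 0.21 (limma adjusted p = 0.362) and 0.41 ± 0.32 in its second set. Gpat4, which acylates glycerol phosphate itself, gave 0.16 ± 0.16, and -0.027 ± 0.45 in its second set. The 4 phosphatidate and lipid phosphate phosphatases had a median of 0.17 and none past the unadjusted threshold. Lpin3, a relative of Lpin1, gave 1.37 ± 0.64 from intensities of 35.8 ± 37.7 in controls and 73.9 ± 37.1 in hyperthyroid muscle (SD, n = 4 each), Plpp1 -0.14 ± 0.22 and Plpp3 0.12 ± 0.18. A second set of Plpp1 gave -0.69 ± 0.25, and further sets of Plpp3 gave -0.43 ± 0.43 and 0.37 ± 1.03.

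The 7 choline and ethanolamine genes had a median of 0.20, again with none past the unadjusted threshold. The choline transporter-like genes Slc44a2 and Slc44a1 gave 0.48 ± 0.28 and -0.46 ± 0.28, and other sets of Slc44a1 gave -0.28 and 0.84. Chpt1, the choline phosphotransferase that finishes phosphatidylcholine, was at 1446 ± 162 in hyperthyroid and 1663 ± 57.5 in control muscle (SD, n = 4 each). Its groups were apart at a log2 difference of -0.21 ± 0.12 (limma adjusted p = 0.579), and its other sets gave 0.058 and -0.15. In the branch of CDP-diacylglycerol, inositol, serine and cardiolipin, 11 genes had a median of -0.062. Ptpmt1, the mitochondrial phosphatase of cardiolipin synthesis, was at 996 ± 125 against 1272 ± 82.4 in controls (SD, n = 4 each). Its groups were apart, with a log2 difference of -0.36 ± 0.13 and an unadjusted limma p of 0.0175 (adjusted p = 0.366). Impa2, an inositol monophosphatase, gave -0.61 ± 0.30, and Tafazzin, which remodels cardiolipin, -0.18 ± 0.17, or 0.094 ± 0.20 in its second set.

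The 4 genes that reacylate lysophospholipids had a median of -0.13 and none past the unadjusted threshold, with Lpgat1 at -0.35 ± 0.31, Lpcat1 at 0.35 ± 0.46 and Mboat7 at -0.17 ± 0.46. Neither were there any among the 19 phospholipases and glycerophosphodiesterases, median -0.12, the group to which Gpcpd1 belongs. Lypla1, a lysophospholipase, gave -0.27 ± 0.13, Pla2g6, a calcium-independent phospholipase, 0.55 ± 0.29, and Gdpd1, a glycerophosphodiesterase, -0.40 ± 0.23. Further sets of Pla2g6 gave 0.28 ± 0.15 and -0.026 ± 0.37, and 1 of Gdpd1 gave -0.43 ± 0.29. The 12 genes of diacylglycerol and triacylglycerol had a median of -0.12. Dgke, a diacylglycerol kinase, had the smallest unadjusted limma p of the 64 (0.00472). It was at 121 ± 30.0 in hyperthyroid and 229 ± 61.6 in control muscle (SD, n = 4 each), with a log2 difference of -0.88 ± 0.26 (limma adjusted p = 0.266). The triglyceride lipase Pnpla2 gave 0.49 ± 0.28 and the acyltransferase Dgat2 gave 0.68 ± 0.42, or -0.0070 in its second set. In the representative sets of Pnpla2 and Dgat2, hyperthyroid replicate 1 was the highest array, at 1003 and 858. The remaining hyperthyroid arrays lay inside the control range.

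**Figure D4:**
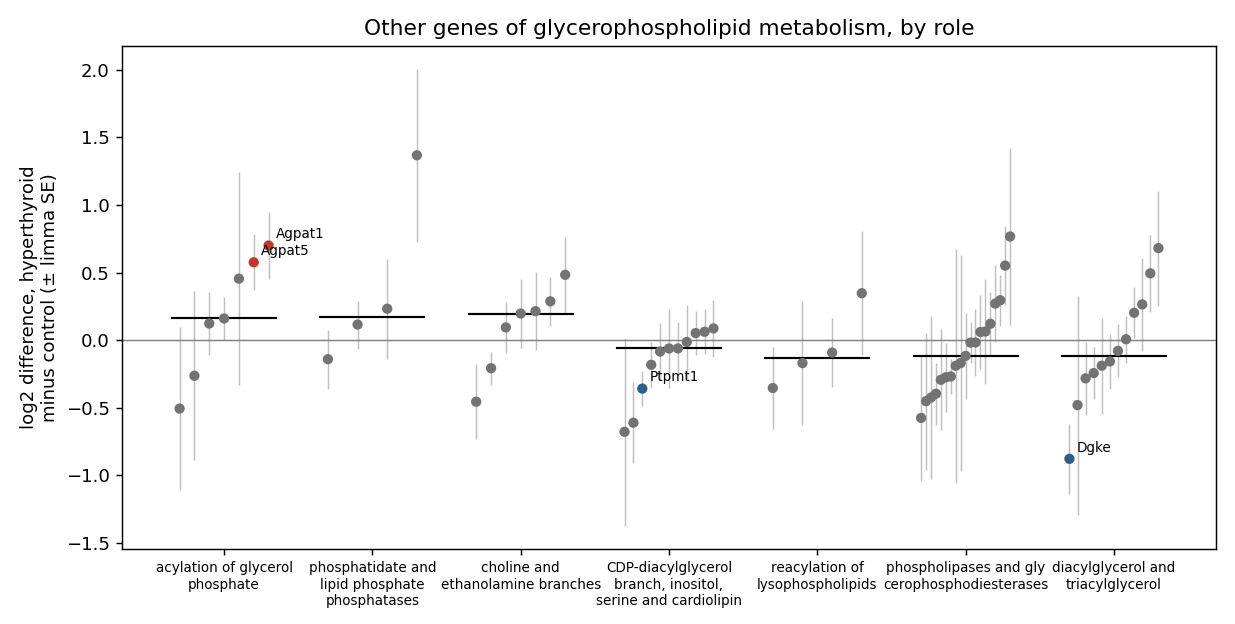
Log2 difference, hyperthyroid minus control, with limma SE (grey lines) of the 64 other genes tested, by role, with the median of each list as a black bar. Agpat1 and Agpat5 (red) were higher and Ptpmt1 and Dgke (blue) lower at an unadjusted limma p under 0.05; none passed the adjusted threshold.

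The arrays matched their labelled tissue, with intensities of 39275 to 63514 for the muscle creatine kinase Ckm and 39005 to 72468 for skeletal actin Acta1. Means of the log2 values of 10 marker lists, each gene centred on its own mean, were compared by exact permutation over the 70 assignments of 4 and 4 arrays (two-sided, smallest possible p 0.0286, adjusted over the lists). General muscle and smooth muscle markers were lower on the hyperthyroid arrays by 0.38 and 0.63, in 4 of 4 genes each (exact p = 0.0286 and adjusted p = 0.143 for both). Slow-fibre markers differed by -3.43 (exact p = 0.143), fast-fibre by -0.21 (exact p = 0.0857) and fibroblast by 0.50 (exact p = 0.6). Adipocyte markers differed by 1.04 (exact p = 0.286), from -0.52 to 1.69 in the hyperthyroid rats and -2.14 to 0.91 in the controls, with 3 of 5 passing the filter and Cidec and Lep under it. Adjusted p was 0.286 or more for all lists but the first 2, and their part in the values of the 8 genes was not tested. Endothelial, Schwann, macrophage and erythroid lists differed by -0.12, 0.034, -0.048 and 0.036 (exact p = 0.657 to 0.971). The 100 brightest probe sets held 22.1% to 25.0% of the signal on hyperthyroid and 26.0% to 28.0% on control arrays, and the part of this in the values above was not tested. In a principal component analysis, control replicate 11 lay at 94.7 on component 1, where the remaining arrays ran from -25.3 to 23.9, and control replicate 9 at -87.1 on component 2.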

How the data were processed

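The tibialis anterior of each of 8 rats gave 1 Affymetrix array. The authors deposited intensities on a linear scale; the submitters' processing notes list GCOS as a tool, without a version. Every array has a mean of 150 after 2% were left out at each end, so each was scaled to 1 target and differences in total RNA are lost. Detection calls were not used here, and the number of arrays limits the precision.

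Gene symbols are those of the platform annotation: of 31099 probe sets 57 were controls, 20826 had 1 symbol, 436 several and 9780 none. RefSeq matched 20758 of the 20826, and all 16 of the members. Log2(intensity + 3.41) was analysed, the pseudocount being the 10th percentile, so fold changes of dim sets are understated. The filter kept 18625 probe sets with a mean log2 above the 40th percentile of 4.69. Of each gene the kept set with the highest mean represented it (10200 genes). Pathway genes were tested with limma 3.58.1 in R 4.3.3 (eBayes with a variance trend, two-sided, Benjamini-Hochberg over all genes) after tests on simulated data. Member errors are plain standard errors of a difference of means, and those of pathway genes are limma's, except for their further probe sets. Alternatives changed the normalization, pseudocount, filter, variance model, gene summary and arrays included.

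The members and gene lists were chosen with earlier results of these data known. Named were all members, the 3 genes of smallest p in each role list and the 5 nearest profiles. Each array is 1 rat. Limma p-values set the difference between groups against the spread between these animals, moderated over all genes. Permutation p-values set it against the other assignments of the same arrays. Levels of control muscle were not ranked between probe sets.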

Additional observations from a re-analysis of the deposited data

Results flagged for a closer look

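Within the groups of 4 arrays, the gap in log2 value between the extreme array and its nearest neighbour was divided by the whole log2 range. On the intensities given below the ratios would be others, so which ranges pass depends on this scale. The ratio was taken over 74 such ranges of the 16 probe sets of the 8 genes and the 21 other genes named by rule. In 3 of them it passed Dixon's 95% limit, where chance gives about 1 in 20. For Agpat3 1382227_at, hyperthyroid replicate 5 was at an intensity of 5.63 and the other hyperthyroid arrays at 103 to 143 (ratio 0.883). For Dgke, control replicate 9 was at 138 and the other controls at 247 to 278 (ratio 0.831). For Plpp1, control replicate 7 was at 509 and the other controls at 829 to 853 (ratio 0.945).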

How the results depend on the processing

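No pathway gene outside the 8 was called higher or lower under the main setting or any of 19 alternatives, while the number of all genes called ran from 0 (no variance trend, or without hyperthyroid replicate 3) to 14 (robust variance). At an unadjusted p under 0.05, 2 higher and 2 lower pathway genes became 10 and 1 after centring on array medians. They became 6 and 1 when both control replicates 7 and 11 were dropped, a choice made after seeing the data. The share of all genes past that threshold was not counted for the alternatives, so nothing is read from changes in these counts. The lower count was 4 when all kept probe sets of a gene were averaged, and with 1 array left out the higher count ran from 1 to 5 (1 without hyperthyroid replicate 2 or control replicate 8, 5 without control replicate 7). The 4 probe sets of the 8 genes with groups apart numbered 4 to 8 with 1 array left out. The 8, without hyperthyroid replicate 5, were 7 higher and 1 lower (Agpat3 1396569_at). Without hyperthyroid replicate 3, and without control replicates 7 and 11 together, 1 was lower (Agpat3 1397491_at). Groups of fewer arrays lie apart more readily. The share of all probe sets at these settings was not counted, so nothing is read from these counts.

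By the representative set, or the mean of the kept sets, the log2 differences of Gpcpd1, Agpat3, Lpin1, Chkb and Pcyt1a kept their sign. This held under all 14 alternatives that bear on them. The differences ran from 1.33 (mean of both sets) to 1.99, 1.66 to 2.27, 0.47 to 0.92, 0.033 to 0.52 and 0.10 to 0.59. Single sets did not all do so: the second kept set of Pcyt1a, 1369656_at, turned sign (-0.48 to 0.39). The 3 Agpat3 sets under the filter were below 0 throughout. Cdipt was 0.098 after centring on array medians, a shift of 0.22 for all genes, relative to which it stayed lower. No paired analysis was possible because the groups share no replicate number. The Chka set and 5 of the 6 Agpat3 sets, all but 1382041_at, had arrays near the low end of the scale, and their log2 differences moved most between settings whether above or below 0.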

Other observations

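Further probe sets of the pathway genes that did not represent them are given here; they were chosen after their values were seen. Intensities are in the order used for the report, hyperthyroid replicates 1, 2, 3 and 5 before controls 7, 8, 9 and 11. Set 1390717_at of Crls1, the cardiolipin synthase, had 276, 215, 231 and 198 in the hyperthyroid rats and 176, 118, 196 and 155 in the controls, a log2 difference of 0.52 ± 0.18 (SE, n = 4 each) with groups apart by a small margin, while its representative set gave 0.062. Set 1370531_a_at of Pld1, a phospholipase that releases phosphatidic acid, had 36.5, 45.9, 62.3 and 46.0 against 25.4, 1.2, 5.53 and 32.4, a difference of 1.81 ± 0.72 from dim signals. The representative set of Pld1 gave -0.17, and its other kept sets, 1370530_a_at and 1370679_at, gave -0.27 ± 0.86 and -0.73 ± 0.54. Sets 1370831_at and 1375247_at of Mgll, the monoacylglycerol lipase, gave -0.70 ± 0.33 and -0.78 ± 0.26 with overlapping groups, against 0.0063 in its representative set.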
